A study of Homo sapiens with 6 samples.

Results

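The 33 genes described here belong to the NRF2 pathway of oxidative stress and to the cell's redox defence, and were compared in tumors of epinephrine-treated (Epi) and PBS-treated (PBS) mice. They were taken by name from a list of pathway genes, each read by the probeset with the highest mean among those annotated to 1 gene. The list was chosen with earlier results of these data known, so its shares beside those of all genes describe the list only. Of the 33 genes, 31 were measured in this way, out of 18132 genes on the arrays in all. MAFK and FTH1 were not analysed here.

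The tumors had grown from MDA-MB-231, a long-established line of human breast cancer cells of the triple-negative type, which was placed in Matrigel under the skin of both flanks of NOD/SCID mice aged 4 to 6 weeks, a strain without functional T and B cells. Mice of the Epi group received epinephrine at 2 mg/kg a day under the skin from 7 days before the cells were given, and mice of the PBS group received the same volume of PBS. Total RNA of cells taken from 3 Epi and 3 PBS tumors was read on Affymetrix Human PrimeView arrays, as log2 values per probeset. The labels call the 3 tumors of a group biological replicates, but the sources used here do not say whether each tumor had its own mouse, so the p-values measure only the spread between these samples. The sample codes in the labels differ within the Epi group, for replicate 2 against replicates 1 and 3, with no explanation.

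NRF2, the product of NFE2L2, is a transcription factor that KEAP1 holds in the cytoplasm and passes on for degradation. When oxidants or electrophiles modify KEAP1, NRF2 accumulates, pairs with a small MAF protein and binds antioxidant response elements in DNA. Its targets make glutathione and NADPH, reduce peroxides and quinones, break down heme and store iron, and the pathway is often active in tumors.

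The replicate 1 array of each group differed from the remaining 4. Over all genes the Pearson correlation of a replicate 1 array with any of the other 4 was 0.935 to 0.962, against 0.972 to 0.989 among those 4, and the 3' minus 5' difference of the ACTB control probesets was 2.94 to 3.17 for replicate 1 and 1.45 to 1.72 for replicates 2 and 3. That of the GAPDH control probesets ran the other way, at -0.37 to -0.12 for replicate 1 and 0.15 to 0.28 for replicates 2 and 3. The 5 markers of MDA-MB-231 cells (VIM, CD44, AXL, CAV1 and MSN) averaged 11.9 to 12.3 in Epi tumors and 12.2 to 12.4 in PBS tumors, and 3 of 5 genes that these cells lack (PGR, CDH1 and EPCAM) lay under 5.69, the 30th percentile of all genes, while ESR1 and GATA3 did not. Of the 7 fibroblast markers 5 lay under that value, as did 5 of the 7 macrophage markers and 1 of the 5 endothelial markers. Host stroma in these xenografts is murine, and probes designed for human transcripts may not read it, so these markers do not measure its content. In these bulk samples fewer cells of a type and less RNA per cell cannot be told apart.

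In Epi tumors most of the 31 measured genes had higher log2 values than in PBS tumors, while the further pathway genes read below were more mixed. The largest differences were those of the cystine transporter gene SLC7A11, the heme oxygenase gene HMOX1, the quinone reductase gene NQO1, the thioredoxin reductase gene TXNRD1 and the glutathione transferase gene MGST1. The differences were moderate, and no member passed the test adjusted over all genes, without or with the replicate block described next. Of the 31 measured genes, 25 had a difference of Epi minus PBS above 0, beside 45.7% of all genes. The median difference was 0.17, with a range of -0.45 for MAFF to 1.07 for SLC7A11, and the median over all 18132 genes was -0.016. Single arrays moved both summaries, to a median of 0.087 with 18 of 31 above 0 without PBS replicate 1 (33.6% of all genes above 0), and to 0.31 with 28 above 0 without Epi replicate 1 (57.7% of all genes). Of the members, 1 (SLC7A11) was higher by more than 2-fold, beside 0.436% of all genes, and 0 were lower by as much, beside 0.353%.

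Differences between the groups were tested in limma, a linear model per gene whose variance estimates draw on all genes, with Benjamini-Hochberg adjustment over all 18132 genes. Of the 31 genes, 0 passed the adjusted threshold of 0.05, and this was also 0% of all genes. With the replicate number of the labels as a block, which removes differences that the 2 arrays of a number share, again 0 of the 31 passed, beside 0.673% of all genes (0.353% higher and 0.32% lower). At an unadjusted p under 0.05 in limma, 3 of the 31 were higher and 0 lower without the block, beside 0.529% and 0.8% of all genes (1.33% in both directions together). With the block 10 were higher and 1 lower, beside 2.12% and 3.09% of all genes. The counts without adjustment describe the list and are not calls.

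The lowest adjusted p among the 31 genes in the fit with the block was 0.0505, for SLC7A11. Some other fits called members, and the larger counts came with more calls over all genes. With the block, a variance trend and robust estimation, 5 members passed (SLC7A11, TXNRD1, TKT, NQO1 and MGST1), beside 1.41% of all genes. With array weights 13 passed, beside 13% of all genes, but the weights did not converge and gave PBS replicate 3 a weight of 67.3 and Epi replicate 1 a weight of 0.124.

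**Figure D1:**
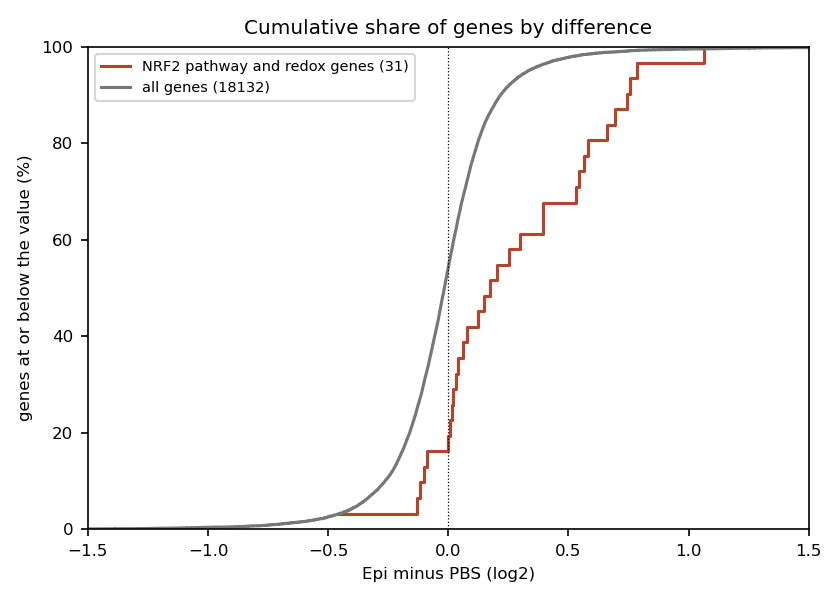
Cumulative share of genes (y axis, percent) by the difference Epi minus PBS (x axis, log2), for the 31 NRF2 pathway and redox genes (red) and all 18132 genes (grey). The red curve lies to the right over most of its range, with a median of 0.17 against -0.016 for all genes.

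The differences were uneven over the replicate numbers. In the Epi array 21 of 31 members were higher than in the PBS array of replicate 1, 20 in replicate 2 and 26 in replicate 3, beside 53.6%, 43.4% and 39.5% of all genes. The median difference of the members was 0.22, 0.083 and 0.37 in replicates 1, 2 and 3. In all 3 numbers 12 members were higher in the Epi array, beside 5.71% of all genes, and 1 was lower (MAFF), beside 13.2% of all genes. All 3 Epi arrays lay above all 3 PBS arrays for 4 members, NQO1, MGST1, UGDH and KEAP1, beside 0.982% of all genes, and the opposite was seen for 0 members, beside 2.22% of all genes.

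The promoters of the members were searched for the core of the antioxidant response element, TGACNNNGC, which reads GCNNNGTCA on the other strand. Many members were listed as NRF2 targets, so a higher share than over all promoters is partly built into the list. The windows run from 250 bases before to 50 bases after the annotated start in RefSeq (GRCh38.p14). Of the 31 measured genes, 26 had a window, and SLC7A11, GSR, PRDX1, PRDX6 and HMOX1 had none in the table. The core was found in 8 of 26 windows (30.8%), against 13.6% of all 27305 windows in the table and 14.4% of the 14425 windows of genes on the arrays. The AP-1 core TGANTCA, searched on both strands, was in 3 of 26 windows (11.5%), against 7.76% of all windows and 5.8% of those of genes on the arrays. In ME1 and PIR it overlapped the other core. A match describes the letters only. The 10 matches are shown 5' to 3' on the strand of the gene, with 10 bases on each side and the core in capitals.
MAFF, chr22:38201862-38201890, plus strand: cttccaggggGCGGGGTCAtacgggggcg
GCLM, chr1:93909446-93909474, minus strand: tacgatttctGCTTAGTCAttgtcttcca
GPX2, chr14:64942849-64942877, minus strand: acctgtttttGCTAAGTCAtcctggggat
TXNRD1, chr12:104215670-104215698, plus strand: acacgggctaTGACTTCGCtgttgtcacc
TXNRD1, chr12:104215761-104215789, plus strand: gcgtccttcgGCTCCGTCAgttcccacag
PGD, chr1:10398853-10398881, plus strand: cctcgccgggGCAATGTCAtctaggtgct
ME1, chr6:83431170-83431198, minus strand: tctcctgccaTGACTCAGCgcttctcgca
ME1, chr6:83431022-83431050, minus strand: gctgcagtcaGCACCGTCAccccagcagc
CBR1, chr21:36069855-36069883, plus strand: tgcgggttctGCAAAGTCAggctagctgg
PIR, chrX:15493289-15493317, minus strand: gccgcgaagcGCTGAGTCAcggtgaggct

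The matches of TXNRD1 began 99 and 8 bases before the start, that of GCLM 34 bases before it and that of PIR 27 bases after it. The median difference of Epi minus PBS was 0.052 over the 8 genes with a match (-0.45 to 0.74, 6 above 0) and 0.23 over the 18 genes without one (-0.13 to 0.75, 15 above 0). Sequence outside the windows was not searched, so a gene without a match may still have the element elsewhere. NQO1, MGST1 and UGDH, whose arrays did not overlap between the groups, had no match in their windows. Their 250 bases before the start are shown beside those of TXNRD1, which holds 1 complete match there, in capitals.
NQO1, chr16:69726561-69726810, minus strand: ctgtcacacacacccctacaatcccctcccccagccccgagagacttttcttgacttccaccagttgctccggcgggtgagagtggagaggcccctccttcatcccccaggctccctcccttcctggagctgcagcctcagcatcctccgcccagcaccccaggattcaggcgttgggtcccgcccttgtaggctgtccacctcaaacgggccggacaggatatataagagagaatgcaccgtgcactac
MGST1, chr12:16347395-16347644, plus strand: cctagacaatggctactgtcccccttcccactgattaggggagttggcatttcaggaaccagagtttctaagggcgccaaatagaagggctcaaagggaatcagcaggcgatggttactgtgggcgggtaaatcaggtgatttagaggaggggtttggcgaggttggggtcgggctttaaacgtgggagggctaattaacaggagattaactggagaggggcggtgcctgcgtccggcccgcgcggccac
UGDH, chr4:39527440-39527689, minus strand: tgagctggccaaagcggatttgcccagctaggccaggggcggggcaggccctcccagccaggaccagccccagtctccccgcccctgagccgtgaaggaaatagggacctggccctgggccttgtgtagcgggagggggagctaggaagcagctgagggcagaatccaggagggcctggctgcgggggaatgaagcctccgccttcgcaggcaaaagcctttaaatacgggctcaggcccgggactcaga
TXNRD1, chr12:104215529-104215778, plus strand: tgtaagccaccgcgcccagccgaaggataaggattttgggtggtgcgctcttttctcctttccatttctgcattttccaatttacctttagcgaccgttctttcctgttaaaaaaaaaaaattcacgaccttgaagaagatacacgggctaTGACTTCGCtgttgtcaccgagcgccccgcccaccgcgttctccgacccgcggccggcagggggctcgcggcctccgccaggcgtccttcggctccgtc

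**Figure D2:**
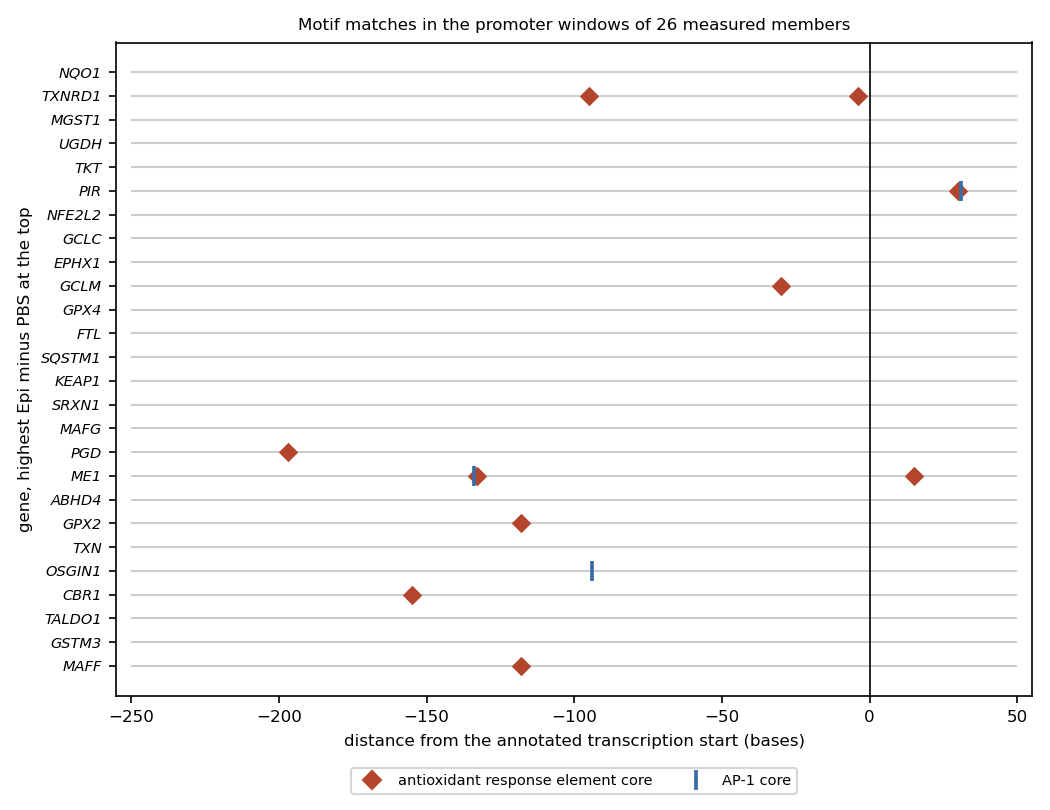
Distance of motif matches from the annotated transcription start (x axis, bases) for the 26 measured members with a promoter window, ordered by Epi minus PBS from top to bottom. Red diamonds mark the antioxidant response element core in 8 genes and blue bars the AP-1 core in 3 genes, and NQO1, MGST1, UGDH and TKT have neither within their windows.

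The 6 detoxification genes had a median difference of 0.53, and for NQO1, MGST1 and UGDH all Epi arrays lay above all PBS arrays on the probeset used. NQO1, which encodes a reductase of quinones and is a classical NRF2 target, read 13.20, 13.54 and 13.18 in Epi replicates 1 to 3, against 12.59, 12.69 and 12.37 in PBS replicates 1 to 3. Every Epi array was brighter than every PBS array, and Epi replicate 2 was the brightest. The mean was 13.3 ± 0.20 in Epi and 12.6 ± 0.16 in PBS tumors (SD, n = 3 arrays each), a difference of 0.75, or 1.69-fold. The unadjusted p from limma was 0.0117 without the block and 0.00171 with it, and its adjusted p with the block was 0.145.

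The second probeset of NQO1 gave a larger difference. It read 11.94, 12.30 and 11.94 in Epi replicates 1 to 3 and 10.85, 10.39 and 10.49 in PBS replicates 1 to 3, a difference of 1.48, and its groups did not overlap either. When every probeset was tested on its own with the block, the adjusted p of this probeset from limma was 0.0673. With the mean of both probesets and the block, NQO1 differed by 1.12 and passed (adjusted p = 0.0148, over its alternatives 2.81e-06 to 1), and it was then the only member called, beside 0.447% of all genes. The study lists NQO1 among the genes altered on these same arrays, so its values are not independent of that list.

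MGST1, a membrane-bound glutathione transferase that also reduces lipid peroxides, read 12.65, 12.27 and 12.65 in Epi replicates 1 to 3 and 12.07, 11.56 and 11.85 in PBS replicates 1 to 3. The lowest Epi array lay above the highest PBS array, and the replicate differences of 0.58, 0.70 and 0.80 were close to each other. The difference of means was 0.69 (1.62-fold), with a standard error of 0.25 without and 0.20 with the block and an adjusted p of 0.212 from limma with the block. The other probesets of MGST1 had differences of 0.68 and 0.41. On the probeset with 0.41 the groups overlapped, as Epi replicate 1 read 10.84 and PBS replicate 2 read 11.08.

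UGDH encodes the enzyme that makes UDP-glucuronic acid, the donor for glucuronidation. It read 8.39, 8.92 and 8.94 in Epi replicates 1 to 3, against 8.11, 7.76 and 8.39 in PBS replicates 1 to 3. The groups did not overlap, but Epi replicate 1 and PBS replicate 3 were nearly level. Its difference was 0.66 (1.58-fold), the unadjusted p from limma was 0.0413 without the block, and the second probeset gave 0.27. On that probeset the groups overlapped. It read 7.42, 8.60 and 9.18 in Epi replicates 1 to 3, against 7.61, 8.22 and 8.54 in PBS replicates 1 to 3. EPHX1, the microsomal epoxide hydrolase gene, had a difference of 0.39 with overlapping groups, which was 0.066 without PBS replicate 1 and 0.68 without PBS replicate 2. By contrast, the carbonyl reductase gene CBR1 and the glutathione transferase gene GSTM3 had differences of -0.090 and -0.13, and both changed sign with the mean of their probesets.

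**Figure D3:**
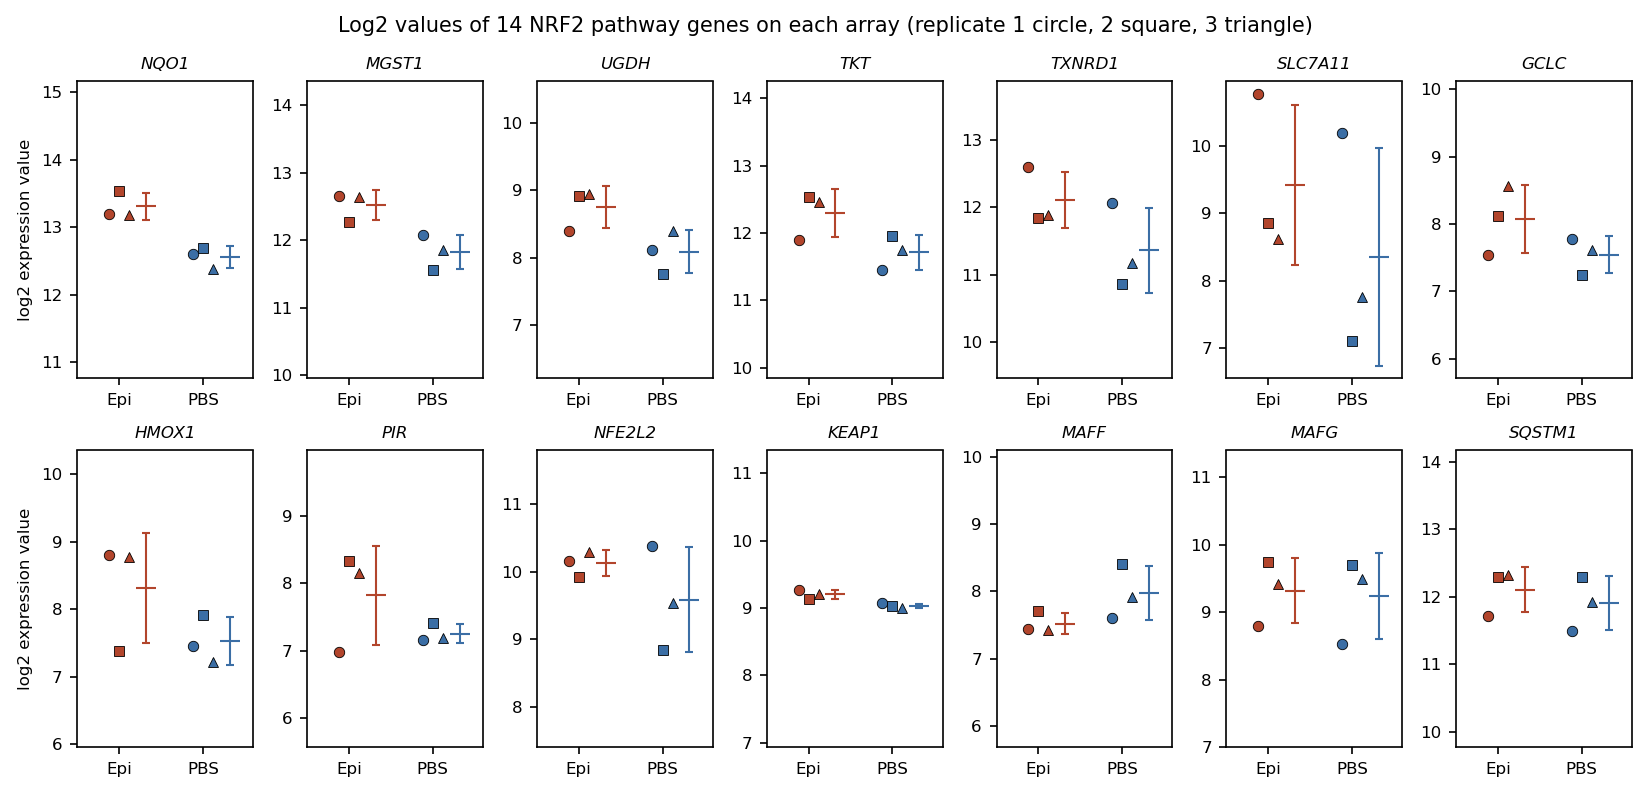
Log2 values of 14 genes on each array, Epi (red) left and PBS (blue) right in each panel, with circles, squares and triangles for replicates 1, 2 and 3, and the mean with its SD beside them (n = 3). Every panel spans the same range of log2 units. NQO1, MGST1, UGDH and KEAP1 do not overlap between the groups, and SLC7A11 is highest on the replicate 1 arrays of both.

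The glutathione genes had a median difference of 0.46, and all 4 lay above 0, beside 45.7% of all genes. SLC7A11, the cystine importer that supplies cysteine for glutathione, read 10.78, 8.86 and 8.62 in Epi replicates 1 to 3 and 10.18, 7.11 and 7.76 in PBS replicates 1 to 3. The replicate 1 arrays of both groups were far brighter than the rest, by 2.39 on average, and the groups overlapped. Within each number the Epi array was the higher one, by 0.59, 1.75 and 0.86.

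The mean difference of SLC7A11 was 1.07 (2.09-fold), but 0.39 without Epi replicate 1 and 1.98 without PBS replicate 1. Its standard error from limma was 0.82 without the block and 0.23 with it. It passed in limma with the block when dim genes were left out (adjusted p = 0.0178), but not after quantile normalization with the block (adjusted p = 0.216), and the range over its alternatives was 0.00104 to 1. The difference was 1.17 without replicate 3 and 0.72 without replicate 2. Of its other probesets, 1 gave 1.31 and had bright replicate 1 arrays as well, at 9.20 in Epi and 8.44 in PBS. The other gave 0.051 and was dimmer in replicate 1, at 7.66 in Epi and 7.53 in PBS, against 7.95 to 8.50 on the other 4 arrays.

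GCLC and GCLM encode the catalytic and modifier subunits of glutamate-cysteine ligase, the rate-limiting enzyme of glutathione synthesis. GCLC read 7.55, 8.12 and 8.56 in Epi replicates 1 to 3 and 7.77, 7.24 and 7.61 in PBS replicates 1 to 3. Epi replicates 2 and 3 were above all PBS arrays, while Epi replicate 1 was below 2 of them. The difference was 0.53 over all arrays, 0.91 in replicates 2 and 3 alone and -0.23 in replicate 1. The other probesets of GCLC gave 0.54, 0.32 and -0.020, the last being dim with a mean of 4.24. GCLM had a difference of 0.39 and was higher in the Epi array of each number, by 0.32, 0.068 and 0.79. Without Epi replicate 3 the difference of GCLM was 0.091, and without PBS replicate 1 it was 0.16. GSR, which regenerates reduced glutathione, had a difference of 0.019.

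Among the genes of peroxide reduction, TXNRD1 had the largest difference. This gene encodes the cytosolic thioredoxin reductase, which keeps thioredoxin reduced with NADPH, and its window holds the core motif. It read 12.59, 11.84 and 11.89 in Epi replicates 1 to 3, against 12.07, 10.86 and 11.17 in PBS replicates 1 to 3. PBS replicate 1 was brighter than Epi replicates 2 and 3, so the groups overlapped, but the Epi array was higher within each number, by 0.52, 0.99 and 0.72. The difference was 0.74 (1.67-fold), with an unadjusted p from limma of 0.0761 without and 0.00225 with the block (adjusted p = 0.172). Its other probesets had differences of 0.54 and 0.92, but both read near the dim end in replicate 1. One read 5.07, 9.81 and 9.91 in Epi replicates 1 to 3 and 5.54, 8.59 and 9.04 in PBS replicates 1 to 3, so that in replicate 1 the Epi array was the lower one. The other read 5.28 in Epi and 4.88 in PBS replicate 1, and 8.47 to 9.91 on the other 4 arrays.

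The other peroxide genes differed little. GPX4, the peroxidase of membrane lipid hydroperoxides, had 0.30 with differences of 0.37, 0.29 and 0.24 in replicates 1 to 3, and SRXN1, which repairs overoxidized peroxiredoxins, had 0.15. The peroxiredoxin genes PRDX1 and PRDX6 had 0.13 and -0.12, the thioredoxin gene TXN 0.0085 and the glutathione peroxidase gene GPX2 0.017. The sign of PRDX6 turned with the mean of its 4 probesets (0.060), and that of GPX2 without the replicate 1 arrays (-0.23).

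Of the 4 genes grouped here under NADPH supply, TKT had the largest difference. The enzymes of TKT and TALDO1 do not make NADPH themselves. TKT encodes transketolase of the pentose phosphate pathway and read 11.90, 12.53 and 12.46 in Epi replicates 1 to 3 and 11.45, 11.96 and 11.74 in PBS replicates 1 to 3. Epi replicate 1 lay just under PBS replicate 2, the only overlap, and each Epi array was above the PBS array of its number by 0.45, 0.57 and 0.72. The difference was 0.58 (1.49-fold), with an adjusted p of 0.438 from limma with the block. Its second probeset gave 0.56 and its dimmest 0.17. PGD, which encodes 6-phosphogluconate dehydrogenase, had 0.063, the malic enzyme gene ME1 0.042 and TALDO1, for transaldolase, -0.10.

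HMOX1 and FTL handle heme and iron. HMOX1, the inducible heme oxygenase that breaks down heme, read 8.80, 7.38 and 8.78 in Epi replicates 1 to 3, against 7.46, 7.92 and 7.21 in PBS replicates 1 to 3. Epi replicates 1 and 3 were above every PBS array, and Epi replicate 2, the array whose sample code differs, was below 2 of the 3. The difference was 0.79 (1.73-fold) over all arrays and 1.45 without replicate 2, the one number in which the Epi array was lower, so that value describes the other 2 pairs only. The other probesets gave 0.40 and 0.36. Macrophages are a known source of HMOX1, and the 7 macrophage markers averaged 4.88 to 5.05 in Epi and 4.79 to 5.20 in PBS tumors. Of these markers 3 had a difference above 0 and 4 below it, with a median of -0.041 and a range of -0.55 (CD68) to 0.092 (CSF1R). Host macrophages are murine, and their part in the result was not tested. FTL, the ferritin light chain gene, had 0.25 on the probeset used and 0.25 to 0.43 on its other 7.

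Of the 5 measured regulators 4 had a difference above 0, beside 45.7% of all genes, with a median of 0.17. None passed in either fit, beside 0% of all genes without and 0.673% with the block. NFE2L2 itself read 10.16, 9.92 and 10.29 in Epi replicates 1 to 3, against 10.38, 8.84 and 9.53 in PBS replicates 1 to 3. PBS replicate 1 was the brightest of the 6 arrays, and the difference of 0.54 became 0.94 without that array and 0.17 without PBS replicate 2. The unadjusted p from limma was 0.191 without and 0.0401 with the block, and the second probeset gave 0.51.

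KEAP1, the inhibitor of NRF2, read 9.27, 9.13 and 9.20 in Epi replicates 1 to 3 and 9.07, 9.02 and 9.00 in PBS replicates 1 to 3. The groups did not overlap, but the difference was 0.17 (1.13-fold), with an unadjusted p from limma of 0.444. MAFF, a small MAF partner, was the one member lower in the Epi array of each number. It read 7.44, 7.70 and 7.43 in Epi replicates 1 to 3 and 7.61, 8.41 and 7.92 in PBS replicates 1 to 3, with Epi replicate 2 above PBS replicate 1 as the only overlap. The difference was -0.45 and the unadjusted p from limma with the block 0.0422, but its second probeset gave -0.016.

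MAFG, another small MAF gene, read 8.79, 9.74 and 9.43 in Epi replicates 1 to 3 and 8.52, 9.71 and 9.50 in PBS replicates 1 to 3. In both groups replicate 1 was the dimmest and replicate 2 the brightest, and the groups differed by 0.078. Of its 4 probesets, 2 held the same values on all arrays. SQSTM1, which encodes p62, a protein that draws KEAP1 into autophagy, read 11.72, 12.29 and 12.32 in Epi replicates 1 to 3 and 11.49, 12.29 and 11.93 in PBS replicates 1 to 3. The replicate 1 arrays were the dimmest in both groups, and the difference was 0.20 (0.21 to 0.32 on its other 4 probesets).

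PIR, which encodes the iron-binding nuclear protein pirin, read 6.98, 8.33 and 8.15 in Epi replicates 1 to 3, against 7.16, 7.42 and 7.18 in PBS replicates 1 to 3. Epi replicates 2 and 3 were above every PBS array and Epi replicate 1 was below all of them. The difference was 0.57 over all arrays and 0.94 in replicates 2 and 3 alone. OSGIN1, an oxidative stress-induced growth inhibitor gene, and ABHD4, a lipid hydrolase gene, had -0.0025 and 0.032, and each was higher in the Epi array of replicate 1 (by 0.62 and 0.52) and lower in that of replicate 2.

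**Figure D4:**
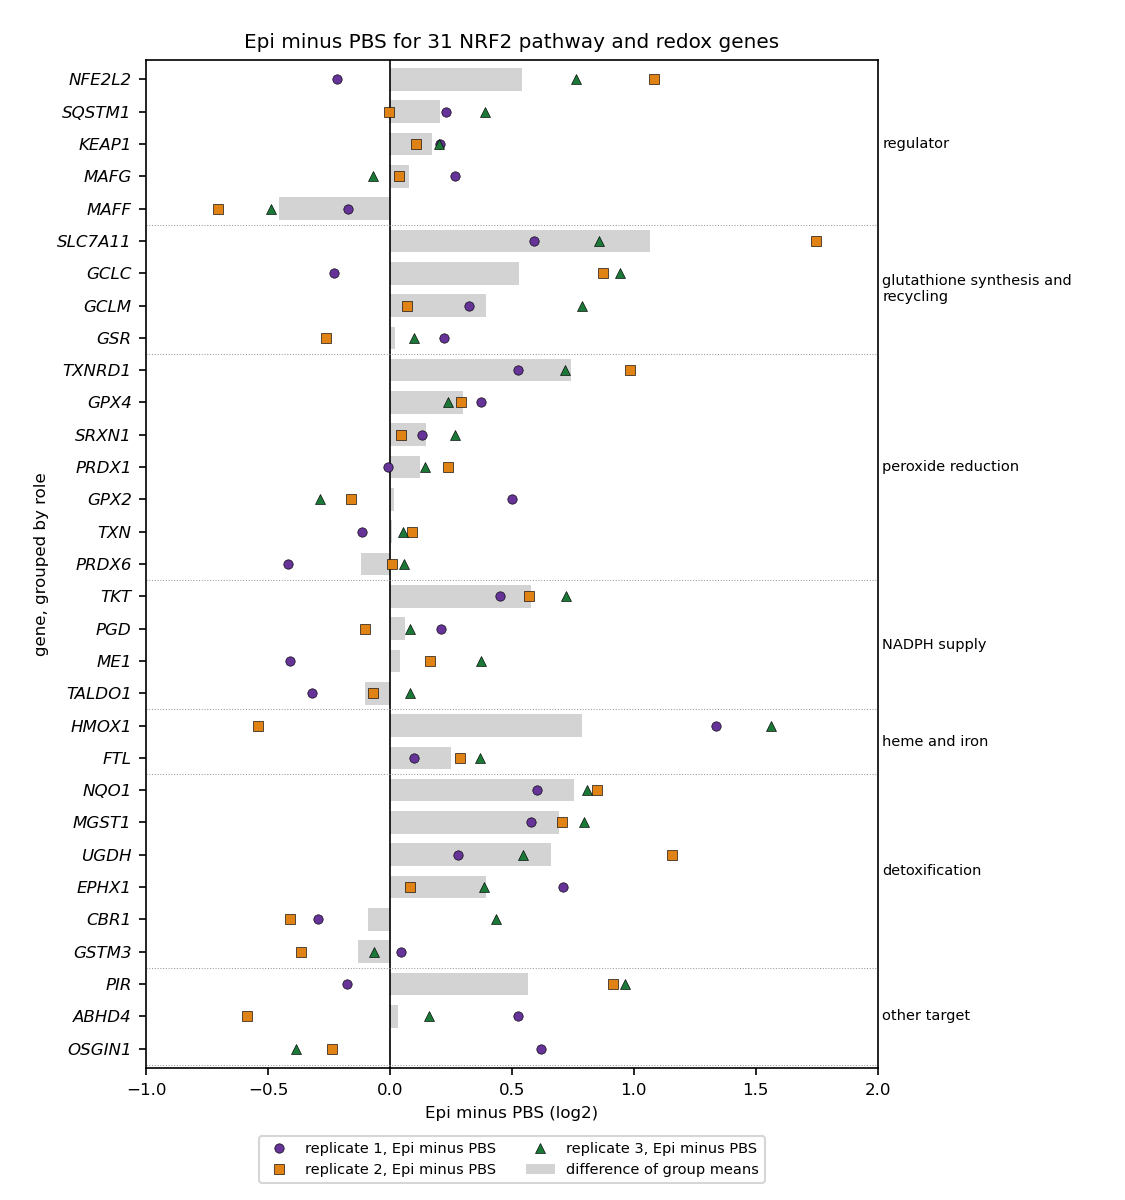
Difference Epi minus PBS (x axis, log2) for the 31 measured genes grouped by role, with bars for the difference of group means and symbols for the difference within replicate numbers 1, 2 and 3. NQO1, MGST1, UGDH, TXNRD1, TKT and SLC7A11 have all 3 symbols above 0, and HMOX1, GCLC, NFE2L2 and PIR have 1 below it.

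For many members the gap between the replicate 1 arrays and the others was wider than that between the treatments. This held for 22 of 31 members, a lower share than the 83.6% of all genes. It was 2.39 for SLC7A11, 0.89 for TXNRD1 and 0.63 for NFE2L2, all brighter in replicate 1, and -1.04 for GPX4 and -0.93 for MAFG, both dimmer. For NQO1 it was -0.051. These gaps belong to the probeset used. Both other probesets of TXNRD1 and 1 of SLC7A11 were dimmer in replicate 1, and the second probeset of NFE2L2 read 9.06 and 9.26 in replicate 1 of Epi and PBS, within the 8.25 to 9.75 of the other 4 arrays. The ACTB and GAPDH control values separated the same arrays, in opposite directions, and their part in these gaps was not tested.

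Different probesets of a gene mostly had the same sign. Of 86 probesets of the 31 genes, 71 had a difference above 0, beside 48.5% of all single-gene probesets. Of 25 genes with several probesets, 18 had 1 sign on all of them and 7 had both. The probeset used carried the suffix for probes that can match other transcripts in 5 genes (x_at) and the suffix for probes shared by several transcripts in 7 (s_at), among them TKT, MGST1 and UGDH in the first case and SLC7A11, TXNRD1 and NFE2L2 in the second.

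**Figure D5:**
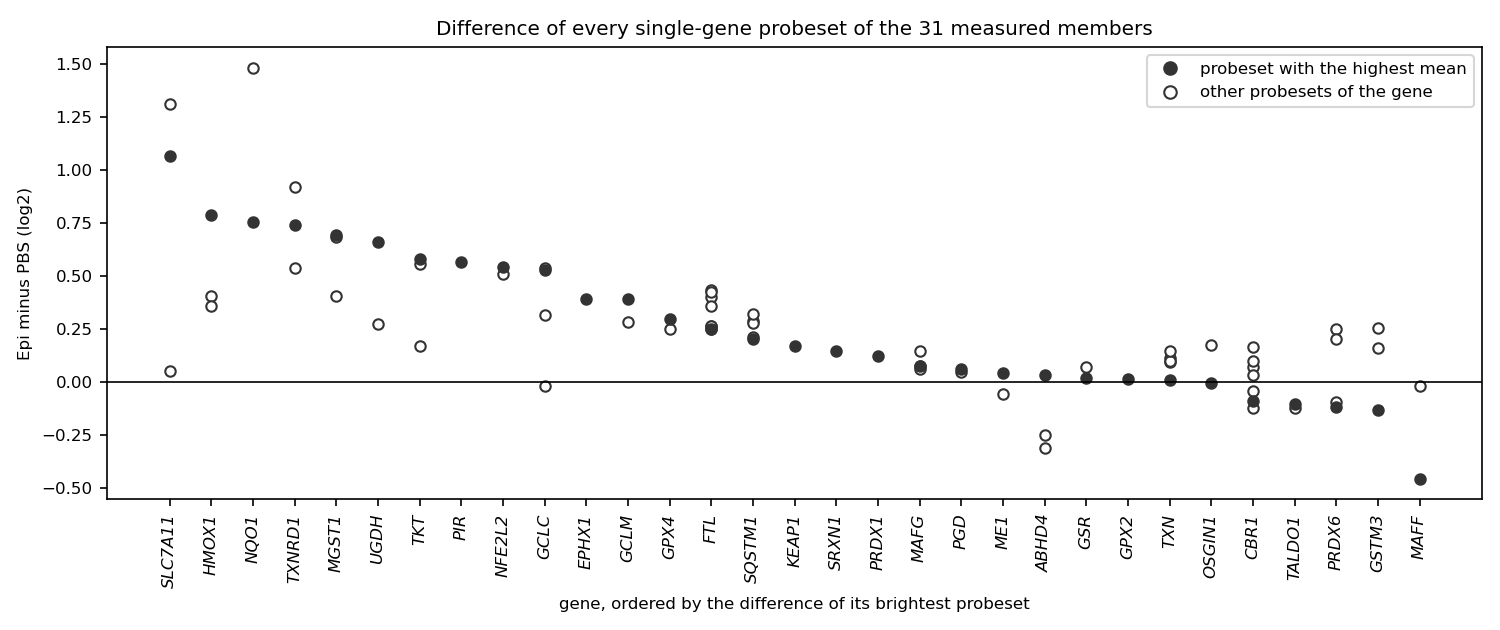
Difference Epi minus PBS (y axis, log2) of all 86 single-gene probesets of the 31 measured members (x axis, ordered by the probeset used). Filled points mark the probeset with the highest mean and open points the others, and NQO1 (0.75 and 1.48) and SLC7A11 (0.051 to 1.31) spread most.

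Other genes of the pathway, listed by role, were read in the same fits. Of 17 measured further NRF2 targets, 1 rose with the block and 0 fell, beside 0.353% and 0.32% of all genes. Of these 17, 10 had a difference above 0, beside 45.7% of all genes, and the median was 0.051. The gene that rose was AKR1C2, a reductase of steroids and carbonyls, at 8.93, 9.99 and 9.72 in Epi replicates 1 to 3 and 7.16, 7.06 and 6.93 in PBS replicates 1 to 3. The groups were far apart, by 2.50 (adjusted p = 7.57e-05 from limma with the block and 0.190 without it), but the mean of its probesets differed by 0.96 (adjusted p = 0.0382 with the block), and it was called in 12 of 24 alternatives. AKR1C1, a close relative whose probes may share transcripts with it, had 1.28 and did not pass. The groups of AKR1C1 overlapped, with differences of -0.045, 2.13 and 1.77 within replicates 1 to 3. AKR1C2 and AKR1C1 are both in the study's list of altered genes.

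Of 25 further glutathione, thioredoxin and antioxidant genes, 1 fell with the block and 0 rose, beside 0.32% and 0.353% of all genes. Of these 25, 14 had a difference above 0, beside 45.7% of all genes, and the median was 0.048. The gene that fell was TXNIP, an inhibitor of thioredoxin, at 7.39, 7.33 and 7.71 in Epi replicates 1 to 3, against 8.01, 9.21 and 8.71 in PBS replicates 1 to 3. Every Epi array lay below every PBS array. The difference was -1.16 (adjusted p = 0.0331 from limma with the block), but -0.81 without replicate 2, where it no longer passed, and it was called in 6 of 24 alternatives. TXNIP is also in the study's list. GLRX5, a mitochondrial glutaredoxin gene, had -0.40.

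Of 13 further regulators 0 passed in either fit, beside 0% of all genes without and 0.673% with the block, and the median was -0.11. Of these 13, 4 had a difference above 0, beside 45.7% of all genes. The largest differences were -0.78 for NFE2L3, an NRF2 relative, and 0.48 for GSK3B, a kinase that marks NRF2 for degradation. Of 9 further iron and heme genes 0 passed either, beside the same shares, with a median of 0.10 and 6 above 0 (45.7% of all genes). The iron exporter gene SLC40A1 had 0.74 but was dim, with a mean of 4.9, under the 30th percentile of all genes (5.69). The transferrin receptor gene TFRC had 0.48, which rested on PBS replicate 2 at 11.03, as its other 5 arrays read 11.95 to 12.69.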

How the data were processed

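The values of 49395 probesets were deposited on a log2 scale. As tools, the submitters' processing notes give RMA, which subtracts background, normalizes arrays and summarizes probes, and Affymetrix Expression Console, without versions. Background correction could not be varied, and the sources used here do not say which arrays were normalized together. The 102 control probesets were left out. Gene names came from the platform annotation of GEO, which gave 1 gene for 44988 probesets, several for 1832 and no entry for 2473. The probeset with the highest mean stood for its gene.

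The contrast of Epi minus PBS was fitted by limma 3.58.1 (lmFit, eBayes) under R 4.3.3, adjusted over 18132 genes. The study's methods name Student's test, analysis of variance and the chi-square test for the whole work and none for the arrays. Its stated threshold for the array data was a fold change over 2 with Q under 0.05. Replicate numbers come from the labels. Same-numbered arrays deviated together from their group means (correlations of 0.630, 0.627 and 0.453), while across numbers Epi replicate 2 and PBS replicate 3 had 0.523 and Epi replicate 3 and PBS replicate 2 had 0.140. The sources do not say what a number stands for, so values are given without and with the block. Fits were tested on simulated data with independent noise and a replicate effect built in, which cannot show whether the block suits these arrays. The members and gene lists were chosen with earlier results of these data known. Values on each array are given for regulators, for members with an unadjusted p under 0.05 in either fit or with groups that do not overlap, and for the largest difference of each role. Of the further pathway genes, those called in either fit and the 2 with the largest difference in each list are named. Promoter sequences are those of RefSeq (GRCh38.p14), matched by symbol. The alternatives were other normalizations, probeset choices, filters, variance models, array weights, the methods' t-test, blocks and leaving out arrays. Combinations of the replicate block with other settings, apart from replicates 2 and 3 only, were chosen after seeing the data. Precision is limited by the number of arrays.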

Additional observations from a re-analysis of the deposited data

How the results depend on the processing

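Of the 24 alternatives with member values, 7 leave each difference as it is by construction, and 13 give distinct estimates. Over those 13, 17 of the 31 members kept the sign of their difference, SLC7A11, NQO1, MGST1, UGDH, TKT, TXNRD1, HMOX1, GCLC, NFE2L2, PIR, KEAP1 and MAFF among them. No member passed in limma under the mean of probesets, quantile normalization, median centring, the filter on dim genes, a variance trend with robust estimation, every probeset, replicates 2 and 3 only or a block for the replicate 1 arrays, nor in the methods' t-test. The replicate block also gave 0 members. By contrast 13 passed with array weights, and with the replicate block 1 passed on the mean of probesets (NQO1), 1 with the filter on dim genes (SLC7A11) and 5 with a variance trend and robust estimation. Over all genes, 122 were called with the replicate block, 2352 with array weights, 16 in replicates 2 and 3 only, 162 in these with the block and 40 with a block for the replicate 1 arrays. Combined with the replicate block, the mean of probesets called 81, quantile normalization 9, median centring 20, the filter on dim genes 155 and the variance trend 255. In the methods' t-test 0 genes passed and 252 had an unadjusted p under 0.05, against 241 in limma without the block. Without each array in turn, 0 members and 0 genes passed, and the median member difference was 0.087 (without PBS replicate 1) to 0.31 (without Epi replicate 1). With the replicate block and without replicate 2 or 3, 1 member passed each time, HMOX1 and SLC7A11, with 66 and 129 genes in all. These 2 fits gave every member 1 common standard error (0.32 and 0.31), so their p-values use no spread of the gene itself, and the omitted replicate 2 is the one in which HMOX1 was lower in Epi. The cause of these shifts was not tested.

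Members close to 0 changed sign. With array weights these were ABHD4 (-0.043), CBR1 (0.31), GPX2 (-0.17), PRDX6 (0.33), TALDO1 (0.26) and TXN (-0.0021). With the mean of probesets, with and without the replicate block, they were ABHD4 (-0.18), CBR1 (0.016), GSTM3 (0.095), ME1 (-0.0071), OSGIN1 (0.085) and PRDX6 (0.060), and with quantile normalization OSGIN1 (0.064). In replicates 2 and 3 only, with and without the block, they were ABHD4 (-0.21), CBR1 (0.012), GPX2 (-0.23), GSR (-0.082), MAFG (-0.017), PGD (-0.0098), PRDX6 (0.032) and TALDO1 (0.0049). With the replicate block and without replicate 2 they were CBR1 (0.071), ME1 (-0.020), OSGIN1 (0.12) and TXN (-0.031), and without replicate 3 ABHD4 (-0.031), GSR (-0.021), ME1 (-0.12), OSGIN1 (0.19) and TXN (-0.014). Leaving out each array in turn gave ranges across 0 for ABHD4 (-0.25 to 0.30), CBR1 (-0.25 to 0.17), GPX2 (-0.30 to 0.20), GPX4 (-0.066 to 0.63), GSR (-0.23 to 0.29), GSTM3 (-0.35 to 0.013), MAFG (-0.28 to 0.34), ME1 (-0.13 to 0.31), OSGIN1 (-0.17 to 0.13), PGD (-0.051 to 0.24), PRDX6 (-0.36 to 0.19), SQSTM1 (-0.0011 to 0.40), TALDO1 (-0.26 to 0.086) and TXN (-0.049 to 0.073).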
